A study of Mus musculus with 16 samples.

Results

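Untemplated 3′ tails are bases at the 3′ end of a small RNA read that the gene's own hairpin does not encode. They were collected here from 16 small RNA libraries of C57BL/6 mouse mesenchymal stem cells. An insert of 18 to 30 nt, with the sequencing adapter seen after it, was taken as tailed when it matched no annotated miRNA hairpin in full but did so once 1, 2 or 3 bases were taken from its 3′ end. The fewest bases that gave a match were removed, and 15 nt or more had to match. By this rule 13720 of the 17783 distinct hairpin sequences were tailed, and the other 4063 matched in full. In reads this was 6230340 of 46596562, or 13.4%. A tail was classed by its base (A only, U only, G only, C only or mixed), by its length and by the 5p or 3p arm of the hairpin that carried it. Tails were seen on 574 of the 667 miRNA arms with reads.

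The libraries formed 8 groups of 2. Wild-type cells (WT) were Dicer f/f and carried the red fluorescent protein mCherry. Knockout cells (KO) were Dicer -/- and carried mCherry. The other 6 groups were Dicer -/- cells transfected with human Dicer (hsDicer) or a mutant of it. K70A changes its helicase domain, Y971A/Y972A its PAZ domain, which holds the 3′ end of the precursor, D1320A its RNase IIIA domain and D1709A its RNase IIIB domain, and the last group carried both RNase changes (D1320A/D1709A). The promoter and level of the introduced Dicer, and the culture behind each library, were not given in the sources used here. P-values therefore measure only the spread between these libraries, which may be technical. Values for a group are given in the order replicate 1, replicate 2.

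Dicer cuts the loop from a precursor hairpin that Drosha has already released. Its RNase IIIA domain cuts the 3p strand and its RNase IIIB domain the 5p strand. Dicer therefore makes the 3′ end of a 5p miRNA, while the 3′ end of a 3p miRNA is the 3′ end of the precursor, made by Drosha. A base added to the precursor can stay on a 3p miRNA but not on a 5p miRNA. The terminal uridylyltransferases TUT4 and TUT7 add U to precursors and to mature miRNAs, and GLD-2 and related enzymes add A.

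The sequences below carry the main patterns. The first set shows mature forms from RefSeq (GRCm38.p6) of miRNAs that were mostly or often found with an added U, with the seed (bases 2 to 8) in capitals. miR-27a-3p and miR-27b-3p share a seed, as do miR-130a-3p and miR-301-3p (RefSeq miR-301a-3p).
miR-27a-3p: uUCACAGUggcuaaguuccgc
miR-27b-3p: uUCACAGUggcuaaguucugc
miR-130a-3p: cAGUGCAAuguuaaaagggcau
miR-301-3p: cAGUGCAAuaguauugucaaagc
miR-24-3p: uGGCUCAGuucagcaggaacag

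The most read U-tailed sequence of each follows, with the untemplated base in capitals. The hairpin encodes C after the matched part in miR-27a-3p, miR-130a-3p and miR-301-3p, and G in miR-24-3p.
miR-27a-3p with U: uucacaguggcuaaguuccgcU
miR-27b-3p with U: uucacaguggcuaaguucugcU
miR-130a-3p with U: cagugcaauguuaaaagggcauU
miR-301-3p with U: cagugcaauaguauugucaaagcauU
miR-24-3p with U: uggcucaguucagcaggaacagU

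The second set shows 5p miRNAs with a high share or a large number of A tails. Their mature forms are given first with the seed in capitals, which let-7b-5p, let-7c-5p and let-7i-5p share. The most read A-tailed sequence of miR-21a-5p, miR-31-5p and let-7b-5p follows, with the added base in capitals.
miR-21a-5p: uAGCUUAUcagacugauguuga
miR-31-5p: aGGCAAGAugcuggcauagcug
let-7b-5p: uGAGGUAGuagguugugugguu
let-7c-5p: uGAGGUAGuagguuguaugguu
let-7i-5p: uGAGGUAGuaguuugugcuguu
miR-21a-5p with A: uagcuuaucagacugauguugacA
miR-31-5p with A: aggcaagaugcuggcauagcugA
let-7b-5p with A: ugagguaguagguugugugguuA

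The third set shows miR-22-3p and miR-29b-3p, in which a G most often stood in place of the last encoded U. The mature form with its seed in capitals is followed by the most read G-tailed sequence with the G in capitals.
miR-22-3p: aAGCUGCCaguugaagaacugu
miR-29b-3p: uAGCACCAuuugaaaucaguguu
miR-22-3p with G: aagcugccaguugaagaacugG
miR-29b-3p with G: uagcaccauuugaaaucaguguG

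The cells and libraries set limits on every share below. Libraries held 10877381 to 21768558 reads. Hairpin reads were 74.4% and 68.0% of inserts in WT but 4.54% and 1.84% in KO, and numbered between 71462 (KO replicate 2) and 9158457 (WT replicate 1). The 11 mesenchymal marker miRNAs all had reads and made up 56.4% and 58.7% of hairpin reads in WT. Most of these reads came from miR-22-3p (3189989 and 2339946), miR-21a-5p (1204459 and 1015705) and miR-29b-3p (334465 and 1100690). miR-143-3p had 133107 and 182227, so the sum says little about the other markers. The liver marker miR-122 and all 13 pluripotency marker hairpins were at 0 in WT, and the 5 blood markers summed to at most 0.000181%. Markers of neuron (0.047% and 0.0679%), muscle (4.4e-05% and 0.0297%) and endothelium (0.0125% and 0.0719%) had few reads there. Counting error was small, since the widest Wilson 95% interval of a library's tailed share spanned 0.467 percentage points. These intervals cover counting error only, because PCR copies of a molecule could not be told from separate molecules.

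Replicate 1 libraries were less varied than replicate 2 libraries in 7 of the 8 groups. Among arms of 1000 or more reads, a single sequence held over 90% of the arm's reads in 46.2% of arms in WT replicate 1 and in 4.28% in WT replicate 2. The same contrast was 61.8% against 6.06% in hsDicer, 57.7% against 7.37% in Y971A/Y972A, 27.6% against 2.76% in K70A, 10 of 13 arms against 2 of 10 in KO and 81.5% against 11.8% in D1320A/D1709A. The gap was small in D1709A (9.23% and 3.57%) and ran the other way in D1320A (10.7% and 18.8%). The median arm of WT had 2 sequences of 1% or more of its reads in replicate 1 and 7 in replicate 2. For a single arm, a tailed share in such a library is therefore often near 0 or near 100%. The median A-only share over 108 arms was 0.077% in WT replicate 1 and 4.94% in WT replicate 2, and over 87 arms of hsDicer it was 0.058% and 3.38%.

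**Figure D1:**
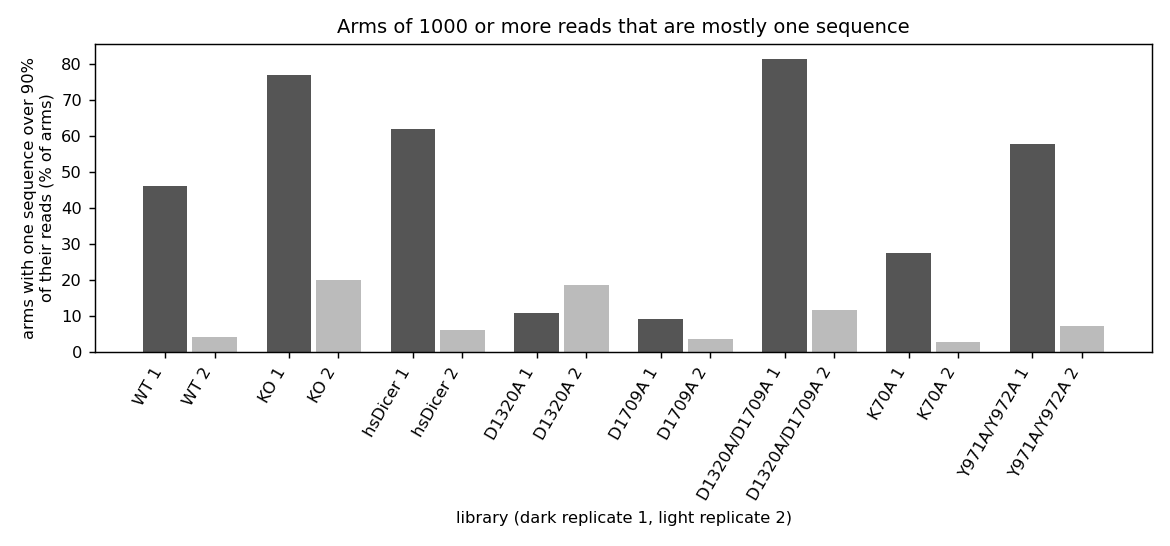
Bars give, for each of the 16 libraries, the percent of arms of 1000 or more reads in which a single sequence made up over 90% of the reads (dark, replicate 1; light, replicate 2). The bar is taller in replicate 1 than in replicate 2 in 7 of the 8 groups, with 81.5% in D1320A/D1709A replicate 1 as the tallest.

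Tailed reads made up 9.95% and 12.5% of hairpin reads in WT. They made up 14.9% and 11.3% in KO and 13.6% and 12.03% in hsDicer, and these 3 groups overlapped. In D1320A the share was lower than in both hsDicer libraries, at 6.82% and 8.61%. It was higher in D1709A (15.0% and 15.6%), in K70A (19.4% and 20.2%) and in D1320A/D1709A (24.7% and 19.9%). These 3 directions depended on the kind of tail counted. Without G-only tails the mean was 8.74% in D1709A and 9.89% in K70A, both below hsDicer at 11.03%. With only tails at or past the usual end (the untailed end most used in WT) D1709A and D1320A/D1709A had 6.52% and 7.23%, below hsDicer at 9.14%, and K70A had 9.49%. With 18 nt or more matched, D1320A/D1709A had 10.9%, below hsDicer at 12.8%. In Y971A/Y972A it was 10.2% and 13.3%, on either side of hsDicer. With 2 libraries against 2 the exact permutation test (2-sided) cannot give a p under 0.333. That value was reached by the 4 mutants that did not overlap hsDicer, and it became 0.556 after Benjamini-Hochberg adjustment over 35 comparisons of shares. No comparison of shares between groups could pass the threshold with this test.

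**Figure D2:**
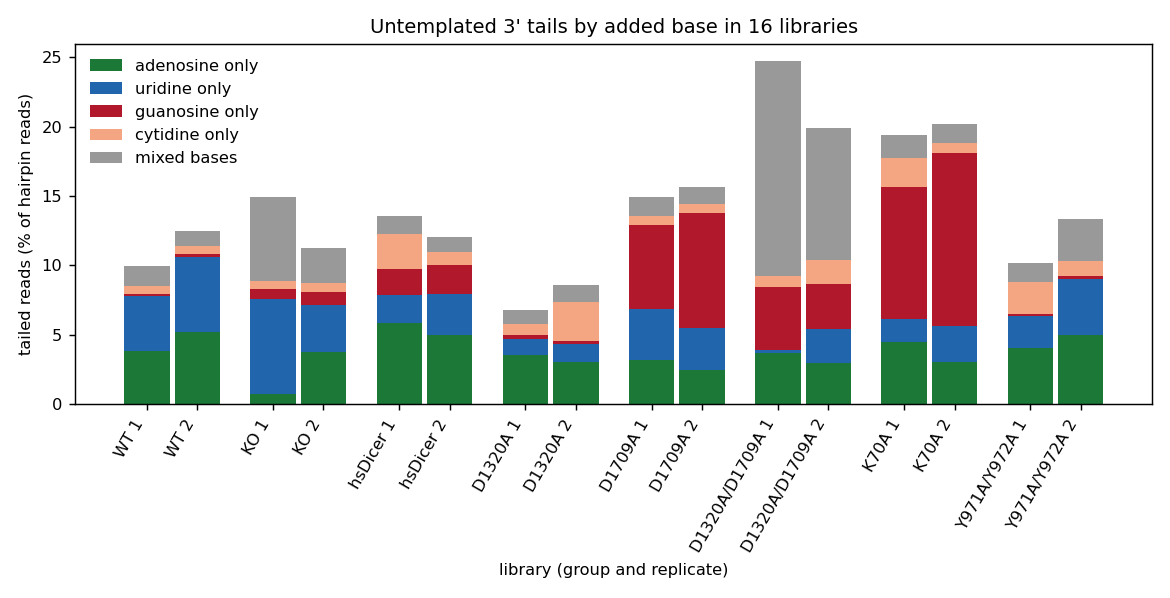
Stacked bars give tailed reads as a percent of hairpin reads in each of the 16 libraries, split by added base. Guanosine (red) is tallest in K70A and D1709A, mixed bases (grey) in D1320A/D1709A, and uridine (blue) in KO replicate 1.

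Most tails were 1 nt long in WT and hsDicer. As a measure of base errors, reads with a substitution at base 10 came to 0.114% to 0.291% of hairpin reads in each library. Those with one just before the last 3 bases came to 3.81% and 0.347% in KO and 4.52% and 1.14% in D1320A/D1709A. In the other groups they came to between 0.126% (D1709A replicate 2) and 0.368% (D1320A replicate 1). Tails of 1 nt made up 7.16% and 10.4% of hairpin reads in WT, while tails of 2 nt made up 1.82% and 1.39% and tails of 3 nt 0.962% and 0.686%. hsDicer gave similar values, with 11.01% and 10.1% for 1 nt and under 2% for each longer length. D1320A/D1709A differed, with 3.71% and 8.41% for 1 nt, 6.48% and 9.84% for 2 nt, and 14.5% and 1.64% for 3 nt. A single sequence ending in a 3-nt tail, given to miR-5099-3p by a match of 17 nt, made up 50.2% of tailed reads in its replicate 1. In its replicate 2 a 2-nt tail on miR-3963-5p made up 20.5%. In some tails of 2 or 3 nt only the first base differed from the hairpin, and the later bases matched it. The rule thus counts a substitution at such a place as a tail. These reads made up 78.6% and 11.7% of tailed reads in D1320A/D1709A, 9.26% and 4.63% in WT, and 5.48% and 4.90% in hsDicer.

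Reads with only A added were 3.82% and 5.19% of hairpin reads in WT and 5.83% and 4.99% in hsDicer. All other groups but Y971A/Y972A (4.05% and 5.002%) lay below both hsDicer libraries. They were K70A (4.47% and 3.05%), D1320A (3.56% and 3.01%), D1709A (3.18% and 2.47%), D1320A/D1709A (3.66% and 2.997%) and KO (0.701% and 3.74%). Reads with only U added were 3.98% and 5.44% in WT and 2.02% and 2.93% in hsDicer, without overlap. D1320A had less than hsDicer (1.13% and 1.32%) and D1709A more (3.67% and 3.01%). KO gave 6.88% and 3.41%, D1320A/D1709A 0.236% and 2.44%, K70A 1.66% and 2.61%, and Y971A/Y972A 2.29% and 4.02%. A read with G in place of an added A or U was not counted as A-only or U-only, so it is missing from these shares.

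Arms were compared within a library in the groups whose Dicer can cut both strands (WT, hsDicer, K70A and Y971A/Y972A, 8 libraries). U tails lay mainly on 3p arms. They made up 4.85% ± 1.94 of 3p reads and 0.897% ± 0.256 of 5p reads (mean ± SD, n = 8). The 3p share was higher in 8 of 8 libraries, and an exact sign-flip test (2-sided, n = 8) gave p = 0.00781, the smallest it can give, and 0.00781 after adjustment over the 2 tail types. In WT the U-only share was 6.53% and 8.38% of 3p reads against 1.35% and 1.19% of 5p reads. In hsDicer it was 3.52% and 4.49% against 0.559% and 0.822%. K70A gave 2.89% and 3.75% against 0.712% and 0.808%, and Y971A/Y972A 3.23% and 6.04% against 0.897% and 0.836%. The lowest 3p share was thus above the highest 5p share. Without miR-24, miR-27a and miR-27b the shares were 3.13% and 0.912%, and with each arm weighted alike the median 3p arm was 2.71 points above the median 5p arm. Both kept 8 of 8 libraries. Leaving out tails that start within 3 bases of the annotated hairpin end, as those of miR-24-3p and miR-130a-3p do, left a difference of 1.92 points, again in 8 of 8.

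In WT and hsDicer both A and U mostly followed the usual end. Of the 1-nt A tails 84.0% and 85.8% in WT were added to that end, and of the 1-nt U tails 80.1% and 82.1%. In hsDicer the shares were 85.7% and 86.6% for A and 66.5% and 67.02% for U. D1320A/D1709A was lower, with 5.67% and 47.3% for A and 15.7% and 28.5% for U. D1320A gave 78.9% and 75.1% for A but 45.2% and 36.4% for U. Across KO, D1709A, K70A and Y971A/Y972A the shares ran from 51.1% (U, KO replicate 2) to 98.7% (U, KO replicate 1).

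A tails ran the other way in the pooled reads, but the difference rested on miR-21a and miR-22. A-only tails were on 6.73% ± 1.39 of 5p reads and 2.76% ± 0.646 of 3p reads (mean ± SD, n = 8), with the 5p share higher in 8 of 8 libraries (exact sign-flip test, n = 8, p = 0.00781). miR-21a-5p, which carried the most A-tailed reads of any 5p arm in 15 of the 16 libraries, gave a median of 50.2% of them. miR-22-3p, with few A tails (0.803% and 1.65% in WT), filled much of the 3p reads. Without miR-21a the difference was 1.90 points, in 8 of 8 libraries. Without miR-22 it was 2.15 points (exact p = 0.0234). Without both, A-only tails were on 4.66% of 5p reads and 4.58% of 3p reads, with 5p higher in 5 of 8 libraries (exact sign-flip test, n = 8, p = 0.922). The 3 libraries with the 3p share higher were replicate 1 of hsDicer, K70A and Y971A/Y972A, and the 4 replicate 2 libraries all kept the 5p share higher. Over arms weighted alike, the median 5p arm stood 0.28 points above the median 3p arm (exact p = 0.0391).

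**Figure D3:**
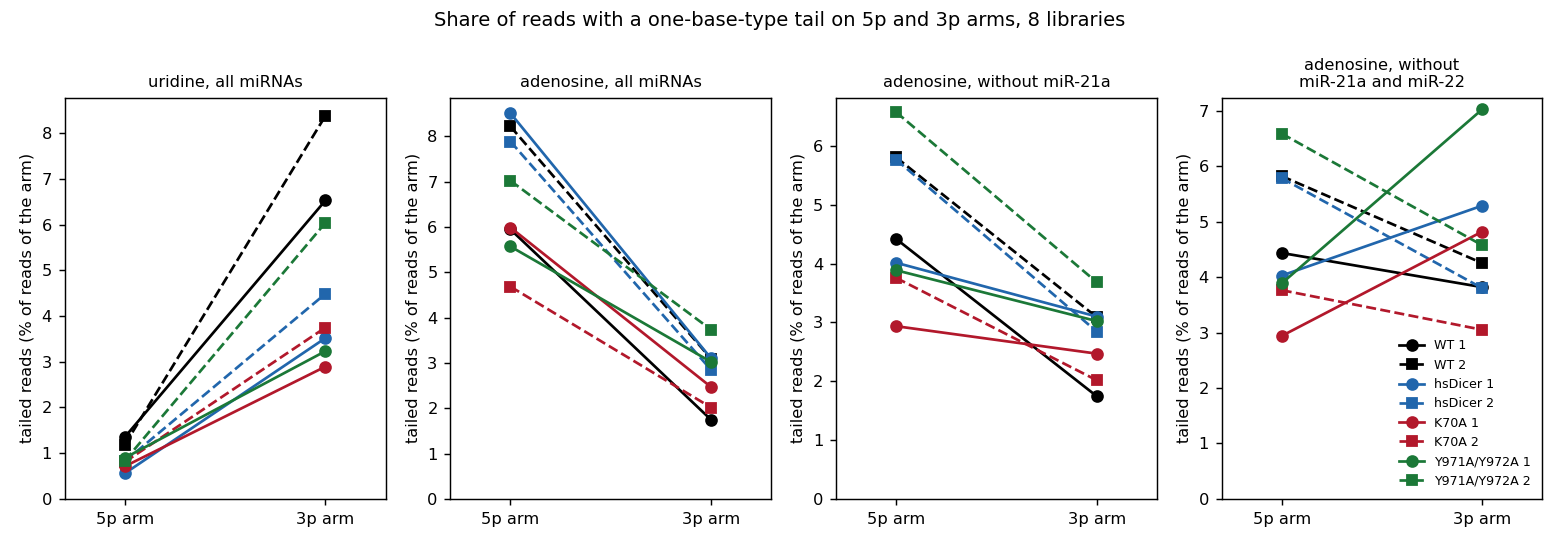
Each line joins the share on 5p reads to the share on 3p reads (percent of reads of the arm) in 1 of 8 libraries (circles and solid lines, replicate 1; squares and dashed lines, replicate 2). All lines rise for uridine and fall for adenosine, and without miR-21a and miR-22 the adenosine lines fall in 5 libraries and rise in 3.

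Where the 3p or 5p strand is not cut, few reads of the uncut arm were left and the test above was not applied. D1320A reads were 93.9% and 91.0% 5p, and D1709A reads 5.05% and 6.59% 5p. On 5p reads, A-only tails were 3.60% and 3.14% in D1320A against 8.51% and 7.89% in hsDicer, without overlap. miR-21a-5p, which carries many A tails, had 92643 and 46067 of 783698 and 312902 hairpin reads in D1320A. In hsDicer it had 1137979 and 347999 of 6388490 and 3109912. The part of this in the difference was not tested. On 3p reads, U-only tails were 3.82% and 2.99% in D1709A against 3.52% and 4.49% in hsDicer, with overlap.

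For U and A tails, individual miRNAs differed far more than groups did. Over the 74 arms with 1000 or more reads in each WT and hsDicer library (49 of 5p and 25 of 3p), the mean U-only share over those 4 libraries ran from 0.0062% (miR-93-5p) to 88.8% (miR-27a-3p). Its median was 0.499% on 5p arms and 6.19% on 3p arms. U-only shares of 10% or more were found on 9 of 25 3p arms and 2 of 49 5p arms. A-only shares of 10% or more were found on 4 of 25 and 9 of 49, and the median A-only share was 2.27% on 3p arms and 2.68% on 5p arms. Of the 10 arms with the highest U-only share, 8 were 3p, and of the 10 with the highest A-only share, 7 were 5p.

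miR-27a-3p had the highest U-only share of the 74 arms. Its U-only share was 97.9% and 81.8% in WT, 96.0% and 79.5% in hsDicer, 84.0% and 52.5% in K70A and 98.3% and 86.2% in Y971A/Y972A. In KO it was 98.3% and 49.2%, and in D1709A 64.2% and 85.2%. Of these reads 85.5% had a single added base. D1320A, in which few 3p reads were left, stood apart with 7.31% and 2.998%. Its precursor gene lies on chromosome 8 (84208672 to 84208758, plus strand, GRCm38), next to one of the miR-24 genes (84208815 to 84208921).

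The miR-27b gene lies on chromosome 13, near the other miR-24 gene. The U-only shares of miR-27b-3p and miR-24-3p differed more between libraries. miR-27b-3p gave 72.4% and 31.1% in WT but 0.715% and 30.5% in hsDicer. miR-24-3p, the arm with the most U-tailed 3p reads in 9 of the 16 libraries, gave 60.6% and 23.3% in WT, 22.3% and 10.45% in hsDicer, 14.4% and 10.003% in K70A and 14.9% and 5.43% in Y971A/Y972A. Its WT libraries lay above both libraries of those 3 groups. Over the 5 arms of the miR-23/24/27 list in the 74, the median U-only share was 29.2%, against 0.951% over all 74.

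miR-143-3p, a smooth muscle and mesenchymal miRNA, had U-only shares of 55.2% and 26.3% in WT, 38.3% and 30.5% in hsDicer, 46.6% and 33.4% in D1709A, 35.4% and 20.7% in K70A and 33.6% and 29.1% in Y971A/Y972A. These groups overlapped. For miR-328-3p the shares were 10.3% and 20.6% in WT and 31.1% and 24.7% in hsDicer. miR-140-3p, known from cartilage, gave 10.7% and 13.1% in WT and 0.691% and 21.6% in hsDicer.

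The 5p arms with high U-only shares were miR-484-5p (54.4% and 22.04% in WT, 44.2% and 31.0% in hsDicer) and miR-351-5p (40.8% and 25.9%, then 52.1% and 26.6%). miR-484 is known to come from a capped hairpin that does not need Drosha. miR-151-3p differed widely between libraries, with 0.0498% and 15.4% in WT and 97.7% and 10.96% in hsDicer. For miR-101b-3p the shares were 38.7% and 17.8% in WT and 36.3% and 11.7% in hsDicer.

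miR-130a-3p and miR-301-3p, chosen after their values were seen and outside the 74 arms, also ended mostly in an added U. miR-130a-3p gave 79.3% and 77.7% in WT (36315 and 101020 reads) and 79.5% and 82.8% in D1709A (8462 and 1875 reads). In hsDicer it had 14 and 10663 reads, with U on 78.6% and 71.7%. K70A was lower at 44.1% and 60.3%, where reads with G in place of the added U are not counted as U-only. Y971A/Y972A gave 0.309% and 76.5%, and 98.9% of its 2587 reads in replicate 1 ended in a G instead. miR-301-3p gave 98.6% and 89.9% in hsDicer, 91.3% and 68.5% in D1709A, 95.7% and 77.7% in K70A, and 84.4% in WT replicate 2. In WT replicate 1 it had 1 read.

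**Figure D4:**
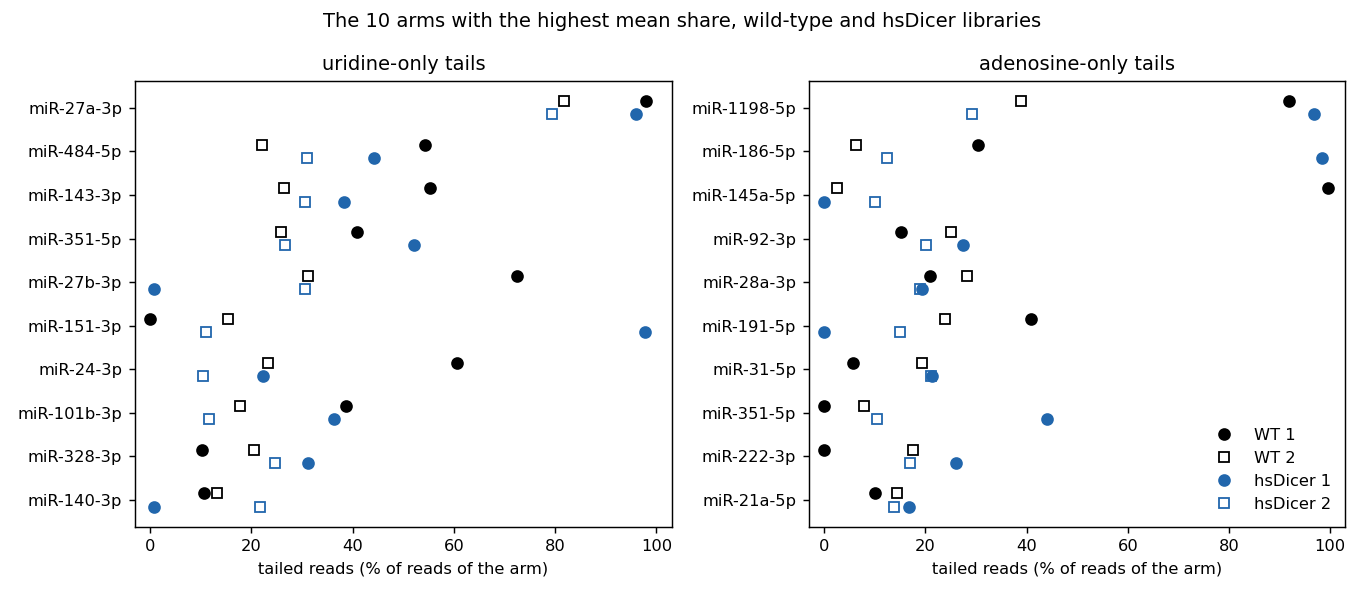
Points give the percent of an arm's reads with a uridine-only tail (left) or an adenosine-only tail (right) in the 2 WT (black) and 2 hsDicer (blue) libraries, filled for replicate 1 and open for replicate 2. The arms are the 10 with the highest mean share of each tail, and several points of replicate 1 sit near 0 or near 100%.

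Adenosine tails were spread over more miRNAs. miR-21a-5p, the most abundant 5p miRNA in WT and hsDicer and known for its high level in fibroblasts and tumours, had A-only shares of 10.1% and 14.4% in WT, 16.8% and 13.8% in hsDicer and 13.3% and 9.84% in D1320A. Lower shares were seen in D1709A (4.97% and 4.85%), D1320A/D1709A (6.20% and 3.74%) and KO (1.49% and 5.61%). The A followed a C that lies past the RefSeq end, and 98.2% of its A-only tails were 1 nt. miR-31-5p gave 21.3% and 21.1% in hsDicer but 2.41% and 1.60% in D1320A and 5.64% and 2.10% in D1709A. WT spanned 5.67% and 19.4%.

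The let-7 family, which restrains growth genes, carried A rather than U. Its median over 10 arms was 4.39% for A-only tails and 0.275% for U-only tails. The medians were 2.66% and 0.951% over all 74 arms, and 2.68% and 0.499% over the 49 that are 5p. Of the let-7 arms, let-7b-5p was the highest for A, with 10.6% and 12.3% in WT and 11.8% and 10.8% in hsDicer. In D1320A it gave 4.72% and 5.69%. The close relative let-7c-5p had fewer A tails, at 2.94% and 3.99% in WT and 0.0275% and 2.83% in hsDicer.

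Among 3p miRNAs, miR-28a-3p and miR-92-3p kept high A-only shares across libraries. miR-28a-3p gave 20.9% and 28.2% in WT and 19.3% and 18.9% in hsDicer. miR-92-3p, of the growth-promoting miR-17-92 cluster, gave 15.2% and 25.1% in WT, 27.4% and 20.2% in hsDicer and 20.9% and 28.5% in D1709A. Other arms on the list moved with the library. miR-145a-5p gave 99.5% and 2.53% in WT, miR-186-5p 98.4% and 12.5% in hsDicer, miR-191-5p 40.9% and 23.8% in WT and 0.0725% and 15.0% in hsDicer, and miR-222-3p 0.018% and 17.6% in WT. miR-1198-5p led the list, with 91.8% and 38.8% in WT and 96.8% and 29.2% in hsDicer.

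Some abundant miRNAs had few tails of either kind. miR-29b-3p, which targets collagen transcripts, gave A-only shares of 1.35% and 0.297% and U-only shares of 0.00508% and 0.0276% in WT. miR-22-3p, the most abundant arm in WT, gave U-only shares of 0.0799% and 0.0279% in WT. miR-22 ranged from 1.86% of hairpin reads (D1320A replicate 2) to 60.4% (D1709A replicate 2), so it sets how far the tails of other miRNAs show in a pooled share.

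The odds of a tail were then tested arm by arm, with edgeR's quasi-likelihood test on tailed and untailed counts and Benjamini-Hochberg adjustment at 0.05. For A-only tails 0 of 245 arms (0.0%) passed in each of the 7 comparisons, with 0 to 5 arms at an unadjusted p under 0.05. For U-only tails 0 of 268 arms (0.0%) passed, with 1 to 6 at an unadjusted p under 0.05. The biological coefficient of variation was 1.14 and 1.11. In data simulated for hsDicer against WT at a coefficient of 1.1, 0 of the changed arms of 1000 or more reads were recovered for either tail at a log2 change of 2 or 4. At 0.2, 77.8% and 93.8% were recovered for A and 88.9% and 94.1% for U. The absence of calls thus says nothing about the absence of change. Other tools called up to 5 arms with DESeq2 and up to 8 with limma, and the 4 libraries of hsDicer against WT fitted alone called 14 arms for A.

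For a description without a model, arms with 200 or more reads in all 4 libraries of a comparison were lined up. If all 4 libraries were alike, an arm would still show no overlap with a probability of up to 0.333, split evenly between lower and higher. The counts below were not tested against that rate, and several are near or under it. In D1320A, A-only shares were lower than both hsDicer libraries in 20 of 61 arms (32.8%) and higher in 3 (4.92%). Any tail was lower in 27 of 61 (44.3%) and higher in 3 (4.92%), and on 5p arms U-only tails were lower in 8 of 53 (15.1%) and higher in 12 (22.6%). The median arm of D1320A had an A-only share of 0.368% and 0.127%, while that of hsDicer had 0.0607% and 2.84%. For A-only tails the counts were 11 lower (25.6%) and 5 higher (11.6%) of 43 in D1709A, 18 lower (21.4%) and 3 higher (3.57%) of 84 in K70A, and 9 lower (13.2%) and 4 higher (5.88%) of 68 in Y971A/Y972A. D1320A/D1709A had 6 lower (46.2%) and 0 higher (0.0%) of 13. Against WT, hsDicer had 11 lower (13.6%) and 6 higher (7.41%) of 81, and KO 4 lower (23.5%) and 0 higher (0.0%) of 17. The mutants share the hsDicer libraries, so these counts are not independent of each other.

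Guanosine tails differed widely between groups and little within most of them. A single untemplated G ended 9.48% and 12.4% of hairpin reads in K70A and 6.01% and 8.26% in D1709A. It ended 1.85% and 2.06% in hsDicer, 0.980% and 2.29% in D1320A/D1709A and 0.695% and 0.845% in KO. WT (0.106% and 0.179%), D1320A (0.187% and 0.187%) and Y971A/Y972A (0.159% and 0.136%) were lowest. In hsDicer, D1709A and K70A, 74.1% to 91.4% of these G stood in place of the last base of the usual end. Where the usual last base was U, G replaced it in 12.6% and 17.03% of such reads in K70A, and where it was A in 12.1% and 15.3%. Where the usual last base was C, the share in K70A was 0.185% and 0.784%. A tail with G in place of its added A or U is lost from the A-only and U-only classes. The part of this in the A-only and U-only shares and counts of K70A and D1709A above was not tested.

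Reads that match no hairpin carried the same G. They were grouped into sets of 200 or more reads alike but for the last base, and the share of G was taken in sets that mostly end in U. Its median was 11.8% and 17.6% in K70A, 6.03% and 9.50% in D1709A, 2.30% and 2.78% in hsDicer, 1.504% and 2.85% in D1320A/D1709A and 0.555% and 0.930% in KO. It was at most 0.0756% in WT, at most 0.157% in D1320A and at most 0.0533% in Y971A/Y972A. Summed over reads in place of the median over sets, the low groups were less apart from KO, with 0.161% and 0.787% in WT, 1.47% and 1.56% in D1320A, 0.190% and 1.502% in Y971A/Y972A and 0.795% and 2.1% in KO. By that sum K70A had 13.5% and 16.4%, D1709A 6.87% and 8.95%, hsDicer 2.43% and 3.72% and D1320A/D1709A 2.07% and 4.02%. Sets of hairpin reads gave 10.98% and 16.2% in K70A and 7.15% and 9.46% in D1709A. Both libraries of a group also carried the same library index, in 8 of 8 groups, and each group had its own. Index and group cannot be told apart.

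**Figure D5:**
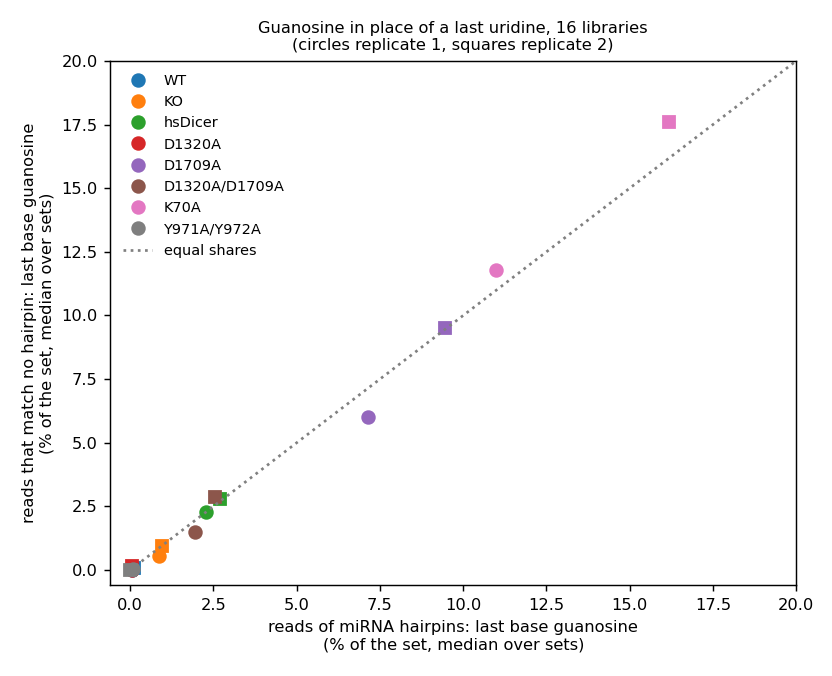
Each point is a library: the x axis gives the median percent of reads with guanosine as last base over sets of hairpin reads that mostly end in uridine, and the y axis the same over reads that match no hairpin. The points lie near the dotted line of equal shares, from about 0 in WT, D1320A and Y971A/Y972A to 16.2% and 17.6% in K70A replicate 2.

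The G-only test per arm, added after the data were seen, had less spread than those for A and U (coefficient 0.70 over 261 arms). In data simulated for hsDicer against WT at a coefficient of 0.7, it recovered 19.05% and 53.3% of arms of 1000 or more reads at a log2 change of 2 and 4, and 15.8% of its calls were false, above the 5% aimed at. The simulation took each arm's share from all 16 libraries pooled, with a floor above the pooled G shares of WT. It changed 60 arms in both directions, while most arms of hsDicer moved up, so its rates may not hold here. Against WT, 33 arms were higher in hsDicer (12.6%) and 5 in KO (1.92%). Against hsDicer, 36 were lower in Y971A/Y972A (13.8%), 15 lower in D1320A (5.75%) and 6 higher in K70A (2.3%). The filter summed reads over all 16 libraries, so some of these arms had few reads in a library compared. miR-130b-5p had 2 and 43 reads in hsDicer, and miR-31-3p had 0 in hsDicer replicate 1. In replicate 1, miR-20a-3p had 10 reads in hsDicer and 4 in WT, and miR-181a-5p had 2 in Y971A/Y972A and 16 in hsDicer. In D1709A and D1320A/D1709A 0 arms passed (0.0%), with 24 and 7 at an unadjusted p under 0.05. Of the 261 arms, the odds rose in 219 in hsDicer, 233 in K70A and 196 in D1709A. They fell in 210 in Y971A/Y972A and 203 in D1320A. KO had 154 higher and 107 lower, and D1320A/D1709A 111 higher and 150 lower. The median log2 change was 2.76 in hsDicer, 0.77 in KO, 2.32 in K70A, 1.41 in D1709A, −0.27 in D1320A/D1709A, −2.82 in Y971A/Y972A and −3.01 in D1320A. TMM factors take out such a shared shift, and relative to it 0 arms passed in all 7 comparisons. Tails at or past the usual end alone also gave 0, but that setting drops every G in place of the last usual base. The loss of calls there was thus largely fixed by the setting. Leaving out a library moved the counts to as few as 7 in hsDicer (without WT replicate 1), 10 in Y971A/Y972A (without its replicate 1), 3 in D1320A (without either of its libraries), 2 in KO and 0 in K70A (without hsDicer replicate 1).

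miR-22-3p, the most abundant arm in WT, followed the pooled G shares in most groups but not in D1320A. G-only shares were 0.139% and 0.141% in WT, 0.924% and 1.27% in KO, 3.13% and 3.33% in hsDicer, 8.64% and 10.3% in D1709A, 15.3% and 18.8% in K70A and 0.136% and 0.115% in Y971A/Y972A. D1320A gave 2.71% and 4.86%. In edgeR's test the log2 change in odds from hsDicer to K70A was 2.61 (SE 0.41, adjusted p = 0.00232) and from hsDicer to Y971A/Y972A it was −4.73 (SE 0.43, adjusted p = 1.2e-06). miR-26a-5p, which ends in U, had G-only shares of 23.96% and 25.1% in K70A and 3.30% and 3.63% in hsDicer (log2 change 3.19, SE 0.72, adjusted p = 0.0247). In miR-96-5p they were 26.7% and 30.6% in K70A and 3.60% and 4.06% in hsDicer. miR-24-3p, which ends in G, gave 0.103% and 1.42% in K70A.

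Other abundant miRNAs of either arm also passed. From hsDicer to K70A the odds of a G rose in miR-21a-5p by 2.76 on the log2 scale, in miR-125b-5p by 2.82 and in miR-29b-3p by 2.43 (SE 0.51, 0.67 and 0.58). From WT to hsDicer they rose in miR-29b-3p by 4.88, in let-7i-5p by 5.44 and in miR-21a-5p by 3.60 (SE 0.60, 1.03 and 0.52). From hsDicer to D1320A they fell by 5.18 in miR-26a-5p (SE 0.77) and by 5.75 in miR-31-5p, with an SE of 1.20. All arms that passed in a comparison changed in the same direction.

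In some libraries other RNAs and single sequences made up much of the tailed class. Tails that complete a CCA end, the mark of mature tRNAs, made up 36.8% and 14.4% of tailed reads in KO, 35.7% in D1320A/D1709A replicate 2 and 14.8% in Y971A/Y972A replicate 2, but 0.254% in both WT libraries. Of all such reads 51.1% were given to miR-3963, 17.1% to miR-1983, whose hairpin overlaps a RefSeq tRNA gene, and 17.1% to miR-5100. The most read forms are shown with the unmatched bases in capitals.
miR-3963-5p: aucccacuucugacacCA
miR-1983-3p: ucgagccucaccuggagcaCCA
miR-5100-3p: ucgaaucccagcggugccucCA

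In KO replicate 1, a single sequence, miR-27a-3p with U, made up 42.5% of tailed reads, and this arm gave 93.7% of the U-tailed 3p reads. In D1320A/D1709A, 73.2% and 36.0% of tailed reads matched by under 18 nt. In D1320A replicate 2, tails at the last annotated base of miR-3473b made up 32.1% of tailed reads (8.65% in replicate 1). The base that follows the hairpin is not known there. The part of these reads in the group shares was not tested beyond these values.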

How the data were processed

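Small RNA of 15 to 50 nt was cut from a gel of Trizol total RNA and sequenced on the Illumina platform, per the labels. The authors deposited counts: each distinct untrimmed read with its number of copies. The longest reads were 41 nt in replicate 1 and 51 nt in replicate 2. Aligner, build and tools were not given in the sources used here.

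Adapters were found by 12 bases without mismatch or by 5 or more bases at the read's end. Inserts were matched to the sense strand of 1174 GENCODE M21 hairpins (GRCm38, 1087 names). Of hairpin reads, at least 97.2% in each library matched hairpins of 1 name. No genome was used, so flanks were not searched, and 257 distinct tailed inserts stood in other GENCODE transcripts. An arm was set by the side of the hairpin midpoint, and a usual end by the untailed end most used in WT. RefSeq held mature forms for 22 of the 26 named arms, with those of chromosome 18 left out.

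Group shares were compared by exact permutation and arms by exact sign flips over 256 arrangements. Per arm, edgeR 4.0.16 (R 4.3.3) fitted library terms and tail by group over all 16 libraries, for arms with 20 or more tailed and untailed reads. The SE is approximate. The test was checked on simulated data, where false calls reached 27.8% of calls for A tails at a coefficient of variation of 0.7. Python 3.11.15 with scipy 1.17.1, pandas 2.3.3, numpy 2.4.6 and matplotlib 3.10.9 did the rest.

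The members, lists and tests were chosen with earlier results of these data known. Named arms were the 10 highest for U-only and for A-only tails and the 10 most abundant among 74 arms of 1000 or more reads, and up to 10 passing arms per direction by reads. Alternatives (DESeq2 1.42.0, limma 3.58.1 and others) are given at the end. Those on G tails, usual ends, the last hairpin base, CCA ends, other transcripts and left-out miRNAs were chosen after seeing the data.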

Additional observations from a re-analysis of the deposited data

Results flagged for a closer look

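Reads that match no miRNA hairpin lie outside the tails described here, yet they carried a signal above the level in WT. In sets of such reads that mostly end in U, the share with G as last base (median over sets, mean of 2 libraries) was 14.7% in K70A, 7.77% in D1709A, 2.54% in hsDicer, 2.18% in D1320A/D1709A and 0.743% in KO, beside 0.0756% in the higher WT library. Summed over reads in place of the median over sets, KO replicate 1 (0.795%) was close to WT replicate 2 (0.787%), while KO replicate 2 had 2.1%.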

How the results depend on the processing

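Of 120 recomputed group means of the tailed share, 85 stayed within 1 SD of the value reported and 35 moved. Without miR-22 the means were 15.1% in WT, 15.2% in hsDicer, 19.4% in D1709A and 15.7% in Y971A/Y972A. Without tails near the hairpin end they were 8.41% in WT, 11.3% in hsDicer, 6.04% in D1320A, 12.4% in D1709A and 18.2% in K70A. With tails at or past the usual end only they were 8.92% in WT, 8.80% in KO, 9.14% in hsDicer, 3.89% in D1320A, 6.52% in D1709A, 7.23% in D1320A/D1709A, 9.49% in K70A and 7.33% in Y971A/Y972A. The median over arms was 7.77%, 5.45%, 7.57%, 1.87%, 11.9%, 3.91%, 17.5% and 5.58% in the same order. Without G-only tails hsDicer had 11.03%, D1709A 8.74% and K70A 9.89%. Without CCA ends KO had 9.88% and D1320A/D1709A 18.8%, and with 18 nt or more matched the latter had 10.9%. D1320A had 6.13% without tails at the last hairpin base and 6.03% without reads found in other transcripts. Inserts of 20 to 24 nt gave 14.7% in D1709A and 18.9% in K70A. Leaving out a library leaves the other library's value.

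The arm contrast of U tails (3p minus 5p) kept 8 of 8 libraries under each alternative over all 8, from 1.92 to 9.71 points. For A tails it was −0.077 points without miR-21a and miR-22. With 1 replicate number only, the exact test cannot go below 0.125, and the contrast was 4.75 and 3.16 points for U and −4.03 and −3.92 for A.

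For A tails, where edgeR called 0 arms, other fits called 14 arms in hsDicer against WT (only the 4 libraries compared), 1 in D1709A (that fit, and DESeq2), 1 in D1320A (limma, pseudocount 5) and 1 in D1320A/D1709A (DESeq2, and limma with pseudocount 5). For U tails, where it also called 0, DESeq2 called 5 in D1320A and 1 each in D1709A, K70A and Y971A/Y972A. limma called 1 in D1320A and 2 in D1320A/D1709A with pseudocount 0.5, and 1, 7, 8 and 4 in D1320A, D1320A/D1709A, D1709A and KO with pseudocount 5. That fit put U on miR-186-5p in KO at 6.25 (log2), with the sign reversed. Leaving out a library gave 0 to 0 calls for A and U tails in all 7 comparisons.

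For G tails, 48 of 112 recomputed counts moved. Tails at or past the usual end only, and TMM centring, gave 0 calls. The first of these settings drops every G in place of the last usual base, so it cannot test those G. DESeq2 called 13 in KO, 23 in D1320A, 5 in D1709A and 14 in K70A. limma with pseudocount 0.5 called 2 in KO, 12 in Y971A/Y972A and 0 in hsDicer, D1320A and K70A. With pseudocount 5 it called 71 in KO, 8 in hsDicer, 3 in D1320A/D1709A, 5 in Y971A/Y972A and 0 in D1320A and K70A. Fits of only the 4 libraries compared called 3 in KO, 3 in D1709A and 24 in K70A, and 100 or more reads of each kind gave 2 in D1709A. Leaving out a library gave 2 to 6 in KO, 7 to 31 in hsDicer, 3 to 11 in D1320A, 0 to 1 in D1709A, 0 to 2 in D1320A/D1709A, 0 to 12 in K70A and 10 to 27 in Y971A/Y972A, where the lone library left is assumed to vary like the other groups. TMM centring takes a shared shift from all arms, so signs below are relative to that shift. They reversed for miR-21a-5p in KO (−0.15), miR-125a-5p and miR-125b-5p in hsDicer (−0.41 and −0.39), miR-29b-3p in K70A (−0.082) and miR-125b-5p in Y971A/Y972A (0.27). With usual ends they reversed for miR-26a-5p in KO and hsDicer (−0.97 and −2.41) and miR-125b-5p in D1320A (1.15). The cause was not tested.

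Replicate numbers go with read length (41 and 51 nt), so a number may mark a shared run. Deviations of same-numbered libraries correlated above 0.1 in 15 (A) and 14 (U) of 28 pairs of groups, not in all, and the fit without the block was kept. With the replicate number as a block, edgeR called 0 arms for A and U in all 7 comparisons. For G the replicate block gave 5 in KO, 32 in hsDicer, 11 in D1320A, 1 in D1709A, 0 in D1320A/D1709A, 6 in K70A and 31 in Y971A/Y972A.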
